A study of Mus musculus with 188 samples.

Results

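Replication of 10 imprinted genes was followed in single mouse embryonic stem cells (mESCs), with the 2 homologs of each diploid cell read apart. The genes were H19, Igf2, Kcnq1ot1, Snrpn, Peg3, Igf2r, Meg3, Peg10, Mest and Grb10. They were chosen by name as well-known imprinted genes, and their loci were taken at set mm10 positions. H19 and Igf2 lie side by side and share a window, so the 10 genes gave 9 windows of 50 kb bins with any base within 200 kb of the locus. These windows held 87 of the 52685 bins in the deposited tables. Only bins with a replication state in all cells and a smoothed score in 50% or more of each line were used, 79 of the 87, beside 45112 over all autosomes. The 8 bins left out were 4 at Snrpn, 2 at Peg3, 1 at Meg3 and 1 at Mest.

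The cells were 75 haploid H129-2 mESCs of strain 129 and 63 diploid F121-9 mESCs, a hybrid line labelled cas/129. All were S-phase cells grown in N2B27+2i+LIF medium, carried no other treatment, and were sorted as single nuclei by DNA content before whole genome amplification and sequencing. The labels name no separate cultures and give each line the wells of 1 plate, so a line counts as 1 sample made of cells. Values are therefore given over cells, as a mean ± SD or as a share with an exact 95% Clopper-Pearson interval that covers the sampling of cells alone, and no p-value is attached. The read depth behind each cell cannot be taken from these files. The haploid line holds a single parental copy of every locus, and which parent gave each F121-9 homolog is not given in the sources used here. Methylation and expression of the genes were not measured.

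Imprinted genes are expressed from the copy inherited from a single parent, because a DNA methylation mark set in the egg or the sperm stays on that copy after fertilisation. Many lie in clusters ruled by an imprinting control region, where a long non-coding RNA or a boundary element keeps the neighbouring genes silent on the chromosome of the other parent. Imprinted regions are also a classic setting for the question of whether the homologs replicate at different times in S phase, which is the comparison these cells allow.

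Copy number marks replication here, since replicated DNA is present in more copies than unreplicated DNA of the same cell. A bin had state 1 when replicated and 0 when not, and a window was called replicated when at least 50% of its bins were. S-phase progress was the share of a cell's autosomal bins that had replicated, averaged over homologs, and mid-S-phase cells had 40% to 60%. There were 25 such haploid cells with 53.5% ± 4.94 replicated and 45 such diploid cells with 53.4% ± 5.22 (SD). Only 11 haploid and 4 diploid cells had less than 40%, so the order of events early in S phase rests on few cells. Row A of the haploid plate had a median progress of 30.6% over its 11 cells and the other rows 55.3% to 83.9%, so row and progress cannot be told apart for early haploid cells. Cells that stood apart are given beside the results they touch. Haploid cell G5 correlated least with the mean score of the other cells (r = 0.373, against a haploid median of 0.784). The most alike diploid cells, G3 with C1, F11 with C12 and F7 with C5, had r of 0.900 to 0.913 between their scores but differed in state at 7.62% to 16.1% of bins, and were counted as separate cells.

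The promoters of 3 genes are shown because their windows carry the results that follow. By smoothed score Kcnq1ot1 had the earliest window and Snrpn the latest, and Meg3 was the locus where diploid cells differed in which homolog was ahead. Sequences are from RefSeq on GRCm38.p6, the build that mm10 names, and run 5′ to 3′ on the strand of the gene from 250 bases before to 50 after a start. CG dinucleotides, the sites of DNA methylation, are in capitals. They lie at chr7:143296498-143296797 on the minus strand for Kcnq1ot1, chr7:60005150-60005449 on the minus strand for Snrpn, and chr12:109540746-109541045 on the plus strand for Meg3.
Kcnq1ot1: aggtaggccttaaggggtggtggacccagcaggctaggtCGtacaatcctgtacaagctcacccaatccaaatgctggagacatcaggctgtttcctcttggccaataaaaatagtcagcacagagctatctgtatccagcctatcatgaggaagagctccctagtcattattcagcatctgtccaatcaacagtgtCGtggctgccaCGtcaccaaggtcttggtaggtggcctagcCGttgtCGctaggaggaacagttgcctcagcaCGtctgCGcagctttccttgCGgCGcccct
Snrpn: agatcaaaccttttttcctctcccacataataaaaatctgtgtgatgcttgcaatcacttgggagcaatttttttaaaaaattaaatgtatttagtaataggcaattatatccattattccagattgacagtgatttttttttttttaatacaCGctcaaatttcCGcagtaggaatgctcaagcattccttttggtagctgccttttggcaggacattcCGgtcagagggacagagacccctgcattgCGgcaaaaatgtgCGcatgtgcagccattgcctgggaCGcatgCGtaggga
Meg3: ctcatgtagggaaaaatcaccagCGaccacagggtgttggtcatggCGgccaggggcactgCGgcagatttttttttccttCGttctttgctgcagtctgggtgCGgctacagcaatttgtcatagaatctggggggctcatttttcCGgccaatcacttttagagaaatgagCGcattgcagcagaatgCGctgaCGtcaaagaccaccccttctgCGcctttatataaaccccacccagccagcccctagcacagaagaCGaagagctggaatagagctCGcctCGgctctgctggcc

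The Kcnq1ot1 promoter held 9 CG dinucleotides, the Snrpn promoter 7 and the Meg3 promoter 13, and the median of 32817 RefSeq mouse promoters of 300 bases was 7. At least as many were found in 45.8%, 52.1% and 37.9% of those promoters. Of the 10 genes, 8 had a promoter in the RefSeq table used, all but H19 and Peg10. Where a gene had several promoters in its window, the most CG-rich was taken, which raises its standing among all promoters. Snrpn had 3 promoters with 3 to 7 CG dinucleotides, and Meg3 had 2 with 1 to 13. Among the promoters taken, Igf2r with 34 and Grb10 with 45 were the highest. Whether the number of CG dinucleotides goes with replication time was not tested.

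The first question was when in S phase the imprinted windows replicate. Of the 9 windows, 8 replicated in the first 5 h of a 10 h S phase, and Snrpn replicated near its end. Bins were ranked by smoothed score averaged over all cells, the rank was spread over 10 h to give a scheduled time, and a window took the mean of its bins. Over the 79 bins, 71 were scheduled in the first 5 h (89.9%), where the ranking itself puts 50% of all bins. No such share was taken over other genes, so early replication is not shown to be particular to imprinted loci.

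The Kcnq1ot1 window (chr7:143000001-143500000) came earliest, at 0.17 h, with bins from 0.05 to 0.51 h. Ranked instead by the mean of binarized states it stood at 2.00 h, after Igf2r at 1.14 h, Meg3 at 1.65 h and Mest at 1.79 h, while Snrpn stayed latest at 8.86 h. Kcnq1ot1 is the long non-coding RNA, made from the paternal chromosome, that silences the neighbouring genes in cis. Next came Mest, a hydrolase gene expressed from the paternal copy, at 1.25 h and Meg3, a maternally expressed non-coding RNA of the Dlk1 cluster, at 1.79 h. Igf2r, the receptor that clears IGF2, stood at 2.29 h and H19/Igf2, a non-coding RNA and a growth factor gene under a shared control region, at 2.30 h. Grb10, an adaptor that restrains insulin and IGF1 signalling, followed at 3.35 h. Peg3, a zinc finger protein gene, stood at 3.65 h and Peg10, a retrotransposon-derived gene needed in the placenta, at 4.22 h. Snrpn, which encodes a splicing protein of the Prader-Willi region, stood at 8.94 h.

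Whether the order of neighbours would hold in other cells was not tested. The rank of a window within a single cell varied with an SD over the 138 cells of 1.27 h at Snrpn to 2.20 h at Peg10. Neighbouring windows in the order were 0.01 to 1.07 h apart, less than that spread, except that Snrpn came 4.72 h after Peg10. The spread is variation between single cells and does not measure the uncertainty of a mean over cells. GC content, given as a description, was 48.1% at Kcnq1ot1 and 47.3% at H19/Igf2, 40.8% at Peg10 and 37.0% at Snrpn, with Grb10 at 42.5% and Mest at 42.9%, against a median of 41.4% over all bins.

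Several windows crossed a slope in the replication profile, so that genes of the same imprinted cluster were scheduled hours apart. Within the H19/Igf2 window (chr7:142350001-142900000), the bin of H19 (chr7:142575530-142578146) was scheduled at 3.07 h and the bin of Igf2 (chr7:142650768-142666816) at 2.39 h. The bin of Th, the tyrosine hydroxylase gene at the far end of the window, was scheduled at 0.60 h. The Peg3 window ran from 1.78 h at its first bin to 5.38 h at its last, with the Peg3 bin at 3.80 h. In the Peg10 window the course was the opposite, from 5.43 h at the first bin to 3.38 h at the earliest. The 2 bins of the gene were scheduled at 4.19 h and 3.60 h.

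**Figure D1:**
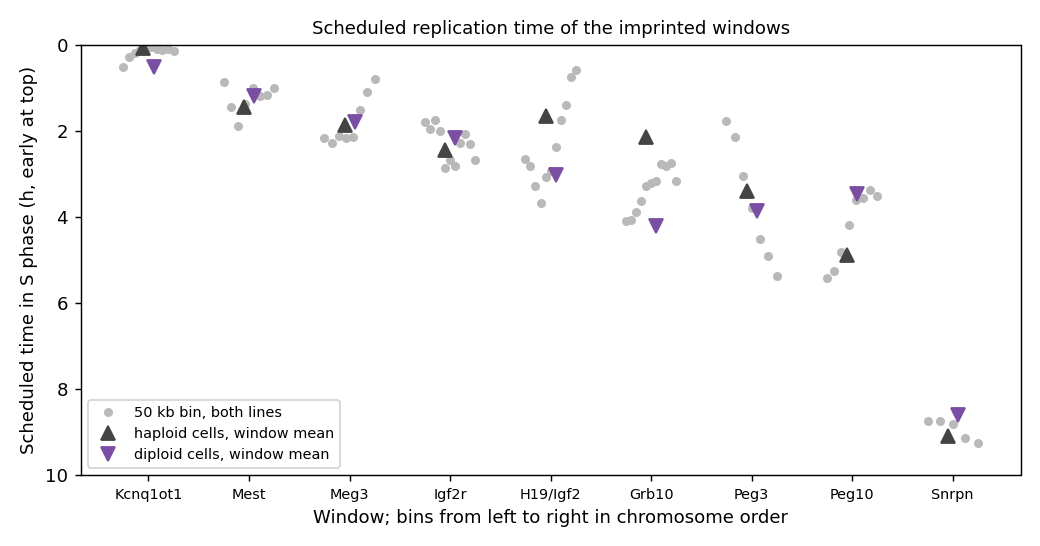
Scheduled replication time in hours of an S phase of 10 h (early at the top) for the 9 windows in their order. Grey points are 50 kb bins in chromosome order, and triangles are window means from haploid or diploid cells alone. By smoothed score, Kcnq1ot1 at 0.17 h and Snrpn at 8.94 h are the ends of the order, and the lines stand farthest apart at Grb10.

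The states of single cells were then read against this schedule. The Snrpn window was replicated in 8 of 75 haploid cells (10.7%, interval 4.72% to 19.9%) and in 3 of 63 diploid cells (4.76%, interval 0.993% to 13.3%). Even among the 39 haploid cells past 60% it was replicated in 6, or 15.4%. Meg3 was replicated in 74 of 75 haploid cells, and Igf2r on both homologs in 62 of 63 diploid cells. Below 40% progress, haploid cells had replicated Meg3 in 10 of 11 and Peg3 and Igf2r in 9 of 11. Kcnq1ot1 and Mest were replicated in 8 of 11, although their scheduled times were the earliest by smoothed score, and Grb10 in 7 of 11. H19/Igf2 and Peg10 were replicated in 4 of 11 and Snrpn in 0 of 11, with an interval up to 28.5%.

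Replicated and unreplicated cells were more mixed in the order of progress at some windows than at others. At Igf2r the only unreplicated diploid cell was the least advanced, at 18.2% progress. No diploid cell stood on the wrong side of that point, but 1 unreplicated cell says little about how sharp the change was. In haploid cells 3 stood on the wrong side at Igf2r, with unreplicated cells up to 53.7%. Peg10 had the most haploid cells on the wrong side, 16 at its best dividing point of 45.3%. Replicated haploid cells were found there from 24.6% progress and unreplicated ones up to 71.0%. At Grb10 the range was wider, from 29.1% to 84.0%, with 1 haploid cell on the wrong side. At Peg3, 11 diploid cells stood on the wrong side of the best point of 42.7%, with unreplicated cells up to 62.5%. In haploid cells 2 stood on the wrong side at Peg3. In diploid cells the dividing point was the same for the 129 and the Castaneus homolog at all 9 windows. Most segments carry equal states on both homologs by construction, so this is a property of the calls.

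**Figure D2:**
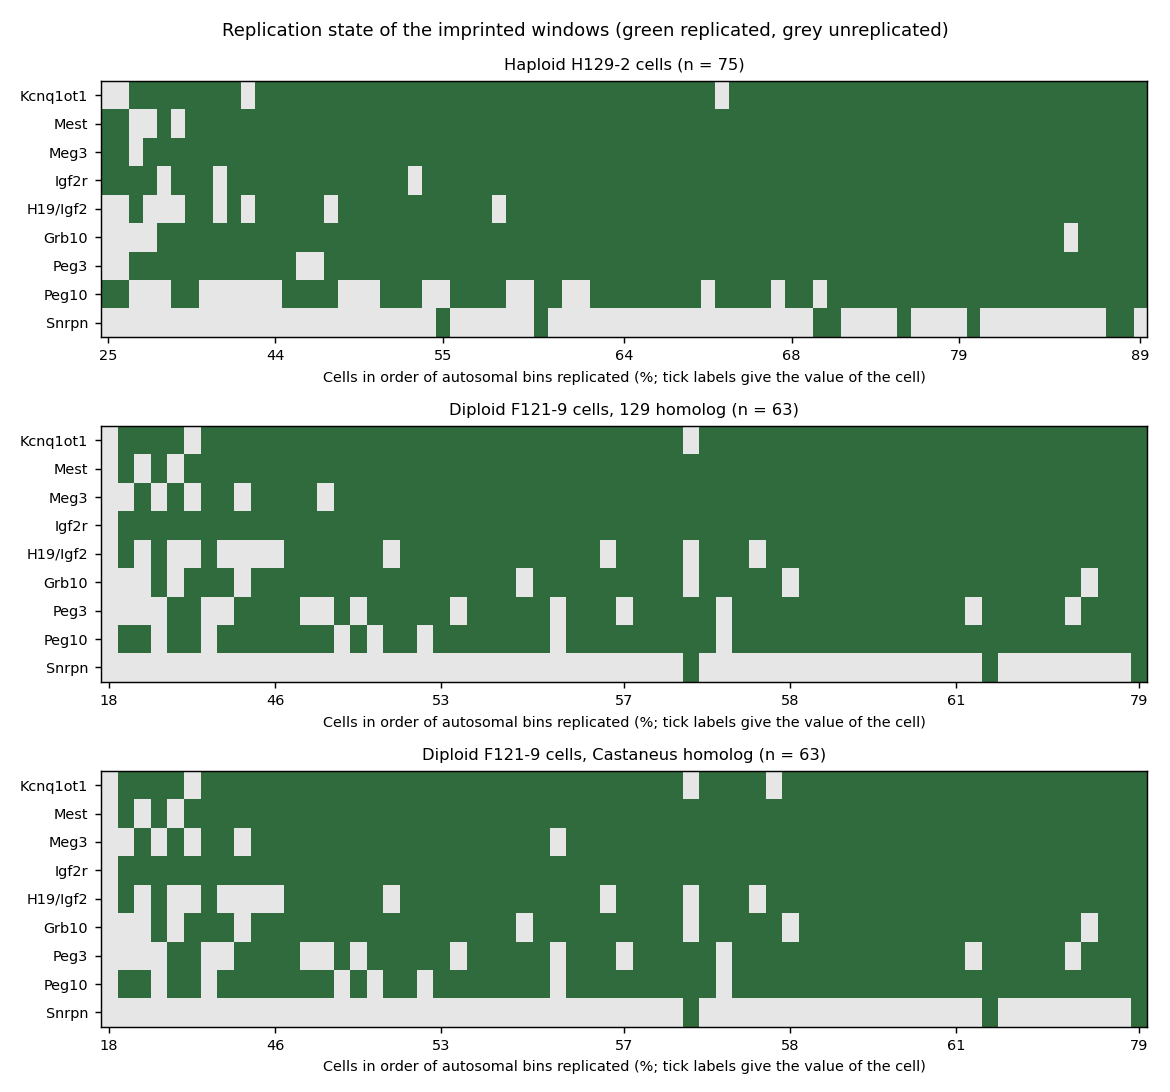
State of each window (rows, in schedule order) in each cell (columns, in order of S-phase progress, with the value of 7 cells under the axis). Green is replicated and grey unreplicated, for haploid cells and for each homolog of the diploid cells. The Snrpn row is mostly grey and the Peg10 row is mixed up to 71.0% in haploid cells, while the homolog panels differ in 3 places, 1 at Kcnq1ot1 and 2 at Meg3.

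Departures from the schedule were counted as windows still unreplicated more than 1.5 h after their scheduled time, with the cell itself left out of the schedule. In haploid cells these were 19 of 512 window-by-cell pairs (3.71%, against 3.9% over all bins). In diploid cells they were 30 of 427 (7.03%, against 5.38%). Of the 30, H19/Igf2 gave 11 of its 61 pairs and Peg3 gave 6 of its 44. Windows replicated more than 1.5 h ahead of schedule were 6 of 57 pairs in haploid cells (10.5%, against 5.58% over all bins) and 3 of 67 in diploid cells (4.48%, against 5.36%). The 6 were 4 of 55 pairs at Snrpn and 2 of 2 at Peg10. The other windows had no such haploid pair, so the haploid share describes Snrpn and Peg10 alone. In diploid cells Snrpn gave 62 of the 67 pairs. Diploid cell H6, at 56.9% progress, stood apart at these loci. Its Kcnq1ot1, H19/Igf2 and Grb10 windows were unreplicated and its Snrpn window was replicated, although its score correlated with the mean of the other cells at r = 0.826 over all autosomes. On chromosome 7, which holds the first 2 of these windows and Snrpn, its r was 0.621, the 4th lowest of 63 diploid cells. Haploid cell G5 had an unreplicated Grb10 window at 84.0% progress.

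The next question was whether the haploid and diploid lines replicated the imprinted windows at the same point in S phase. Of the 9 windows, 1 differed by at least 20 percentage points in mid-S-phase cells, Peg10, which lagged in the haploid line. The Peg10 window was replicated in 14 of 25 haploid cells (56.0%, interval 34.9% to 75.6%) and on both homologs in 39 of 45 diploid cells (86.7%, interval 73.2% to 94.9%), a difference of -30.7 percentage points. Cells with and without a replicated Peg10 window were equally far in S phase in the haploid line, at 53.8% ± 4.08 (SD, n = 14) and 53.1% ± 6.05 (SD, n = 11). The smoothed score of the window had its lowest, median and highest mid-S-phase values at -1.26, -0.01 and 0.96 in haploid cells and at -0.45, 0.23 and 1.49 in diploid cells. The groups overlapped over most of their range, and the haploid cells reached lower. With replication called from a smoothed score above 0, the difference at Peg10 was -15.1 percentage points and no window reached 20.

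The Peg10 difference belonged to a wider domain. Bins in which the diploid line was ahead by at least 20 percentage points ran without a break from chr6:4150001-6300000, 42 used bins over 2.15 Mb with a median difference of -33.1 percentage points. The bins just outside differed by -19.8 and -19.3. All 8 used bins of the window were in this direction, by -26.4 to -34.7. They were the only ones of the 79 bins called in it (10.1%, against 7.11% of all autosomal bins). Chromosome 6 as a whole differed by -3.80 percentage points, and Mest, also on chromosome 6, by 2.22. With progress taken from the other autosomes, Peg10 was still the only window past 20.

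In the opposite direction, 4 of the 79 bins had a haploid lead of at least 20 percentage points (5.06%, against 5.77% of all bins). They were 3 bins at the edge of the Grb10 window, the last of which reaches into Ddc, the dopa decarboxylase gene, and 1 bin of H19/Igf2. The Grb10 window itself was replicated in 25 of 25 haploid cells (interval 86.3% to 100%) and 40 of 45 diploid cells (88.9%, interval 75.9% to 96.3%). Its smoothed score was 0.50 ± 0.30 in haploid and 0.15 ± 0.34 in diploid mid-S-phase cells (SD, n = 25 and 45), and it was scheduled at 2.14 h by haploid and 4.21 h by diploid cells, the largest gap between the lines among the 9 windows. Chromosome 11 as a whole had a haploid lead of 8.81 percentage points in these cells.

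H19/Igf2 was replicated in 92.0% of haploid (23 of 25, interval 74.0% to 99.0%) and 77.8% of diploid mid-S-phase cells (35 of 45, interval 62.9% to 88.8%). Its smoothed score was 0.60 ± 0.45 against 0.30 ± 0.49 (SD), and the ranges of -0.36 to 1.22 and -0.53 to 1.15 overlapped almost fully. The difference of 14.2 percentage points was 7.05 when cells were matched in 5-point classes of progress. Peg3 stood at 92.0% and 80%, a difference of 12 percentage points, but its smoothed score was 0.21 ± 0.29 in haploid and 0.24 ± 0.46 in diploid cells (SD). With replication called from a smoothed score above 0 the difference at Peg3 was 0.89 percentage points, within 500 kb it was 4.89, and in cells of 45% to 55% progress it was 4.39. The other 5 windows differed by -4.00 to 6.67 percentage points. Leaving out diploid cell H6 moved Kcnq1ot1 from 5.56 to 3.41, Grb10 from 11.1 to 9.09 and Snrpn from 5.78 to 8 percentage points.

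**Figure D3:**
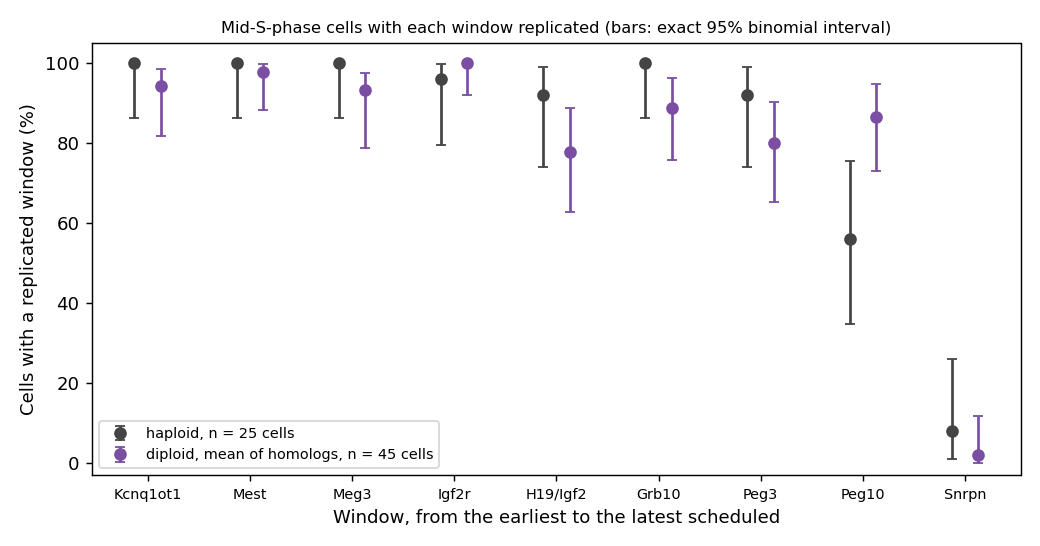
Percentage of mid-S-phase cells with each window replicated, for 25 haploid cells and 45 diploid cells (mean of homologs), with exact 95% binomial intervals over cells, which for diploid cells refer to cells with both homologs replicated. The lines are farthest apart at Peg10, at 56.0% and 86.7%, and their intervals overlap at every window.

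The flanks of Grb10, Peg3, Peg10 and Igf2r differed between the lines by more than the windows themselves. Over the used bins up to 1.5 Mb around Grb10 and outside its window, the haploid line had a mean of 50.9% and the diploid line 25.8%, and 26 of 47 bins had a haploid lead of at least 20 percentage points. Around Peg3 the means were 84.7% and 52.8%, with 15 of 24 bins in that direction, all before the window. After the window only the bin at chr7:6950001-7000000 was used, with 48% in haploid and 53.3% in diploid cells. Around Peg10 the means were 37.4% and 71.5%, with 43 of 49 bins in the opposite direction, and around Igf2r 62.6% and 82.9%, with 11 of 34. Over all autosomal bins, 5.77% had a haploid lead and 7.11% a diploid lead of at least 20 percentage points. The flanks of Meg3, Mest, H19/Igf2 and Snrpn had no bin past 20 percentage points in either direction, and those of Kcnq1ot1 had 1.

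**Figure D4:**
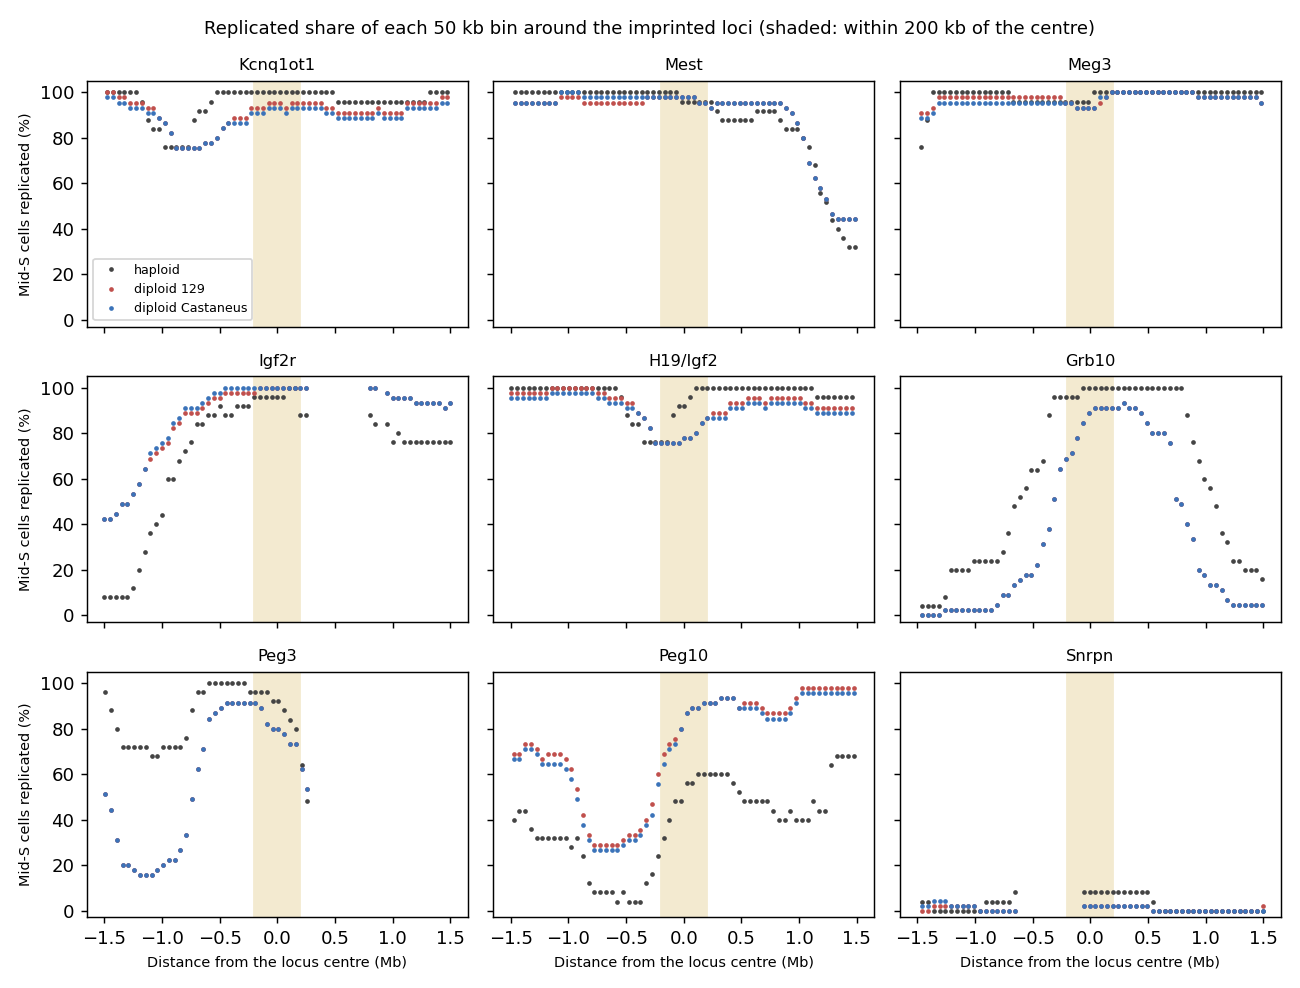
Percentage of mid-S-phase cells with each 50 kb bin replicated, against distance from the locus centre in Mb, for haploid cells (n = 25) and for the 129 and Castaneus homologs of diploid cells (n = 45). The band is 200 kb to each side of the centre, and gaps are bins without a state in every cell. In haploid cells the Grb10 domain is wider, the Peg3 domain reaches farther to the left, and the Peg10 domain lies lower. The homolog points nearly coincide.

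The comparison at the centre of the study's diploid design is that of the homologs. Called differences between the 129 and the Castaneus homolog were few at the imprinted windows and ran in both directions. Of 567 window-by-cell pairs, 7 had at least 1 bin with different states (1.23%), in 4 of the 63 diploid cells. At 5 windows there were 1 or 2 such cells, and at Snrpn, Peg3, Mest and Grb10 there were 0 of 63. This allows a share of called cells of up to 4.76% counted as 3 cells of 63, with an exact upper bound of 5.69%. A segment with too few parsed reads keeps equal states, and 18 diploid cells had no bin of different states on any autosome. The bound therefore limits calls and not the share of cells whose homologs differed. In 5 of the 7 the 129 homolog alone was replicated, and in 2 the Castaneus homolog.

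These counts did not exceed the level of the genome. Of the 79 bins, 22 had different homolog states in at least 1 cell (27.8%), against 40.4% of all autosomal bins and also 40.4% of those scheduled in the first 5 h. The 129 homolog alone was replicated in at least 1 cell at 19 bins (24.1%, against 27.5%) and the Castaneus homolog at 8 (10.1%, against 18.3%). No bin had more than 2 such cells. Over cells and bins together, homologs differed in 0.563% of the values at the imprinted windows and in 0.870% over all autosomal bins. Neighbouring bins of a cell share a segment and its call, so the 22 bins are not independent, and they belong to 6 runs.

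At Kcnq1ot1 the run covered the whole window. In diploid cell H3, at 58.1% progress, the 129 homolog alone was replicated at chr7:142850001-143650000, a run of 16 bins. It took in all 10 bins of the Kcnq1ot1 window and 1 of 11 of the H19/Igf2 window. It ran from Th and Ascl2 through Kcnq1 and Cdkn1c, a cell cycle inhibitor gene expressed from the maternal copy, to Phlda2 and Nap1l4, whereas the bins of H19 and Igf2 lay outside. By the schedule the Kcnq1ot1 window was 5.64 h past its time in this cell.

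Meg3 was the window with both directions. In cell F11, at 55.1% progress, the 129 homolog alone was replicated at chr12:107900001-109600000, 34 bins that took in the whole Meg3 gene (chr12:109540996-109571729) near their end. In cell G4, at 49.4%, the Castaneus homolog alone was replicated at chr12:109300001-109650000, 7 bins that also covered it. These cells and H3 at Kcnq1ot1 gave the 3 calls in which the state of most of the window differed between homologs. At Igf2r, cell H7 had the Castaneus homolog alone replicated at chr17:11600001-12550000, which reached 2 of 11 bins of the window and ended 130 kb before the locus.

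At Peg10 both calls had the 129 homolog ahead and stopped short of the gene. In cell F11 the run lay at chr6:3000001-4600000 and in cell G4 at chr6:3550001-4700000, and the bins of Peg10 (chr6:4747306-4760517) had equal states. Cells F11 and G4 thus gave 4 of the 7 calls. F11 also had the most bins of different homolog states of all diploid cells, 8.58%, against a median of 0.264%. Without F11 there were 5 calls, 3 with the 129 and 2 with the Castaneus homolog ahead.

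Copy number over the same runs was compared with the calls. The relative score of a run is 0 at the median of the cell's unreplicated bins and 1 at that of its replicated bins, so that a single replicated homolog would lie near the middle. It was 0.51 over the Igf2r run, 0.60 over the Meg3 run of F11 and 0.68 over that of G4. Mid-S-phase cells with both homologs replicated had 1.02 ± 0.29 (SD, n = 31), 1.22 ± 0.20 (n = 35) and 1.10 ± 0.26 (n = 41) over the same bins, so these 3 runs lay below by more than 1 SD. The Kcnq1ot1 run of H3 had 1.16, within the SD of cells with both homologs replicated, 1.30 ± 0.27 (n = 38). The Peg10 runs had 0.10 in F11 and -0.16 in G4, where cells with both homologs unreplicated had 0.04 ± 0.11 (n = 6) and 0.07 ± 0.07 (n = 5). So 3 of the 6 runs had an intermediate score, and 3 lay at the level of a single state on both homologs or below it.

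**Figure D5:**
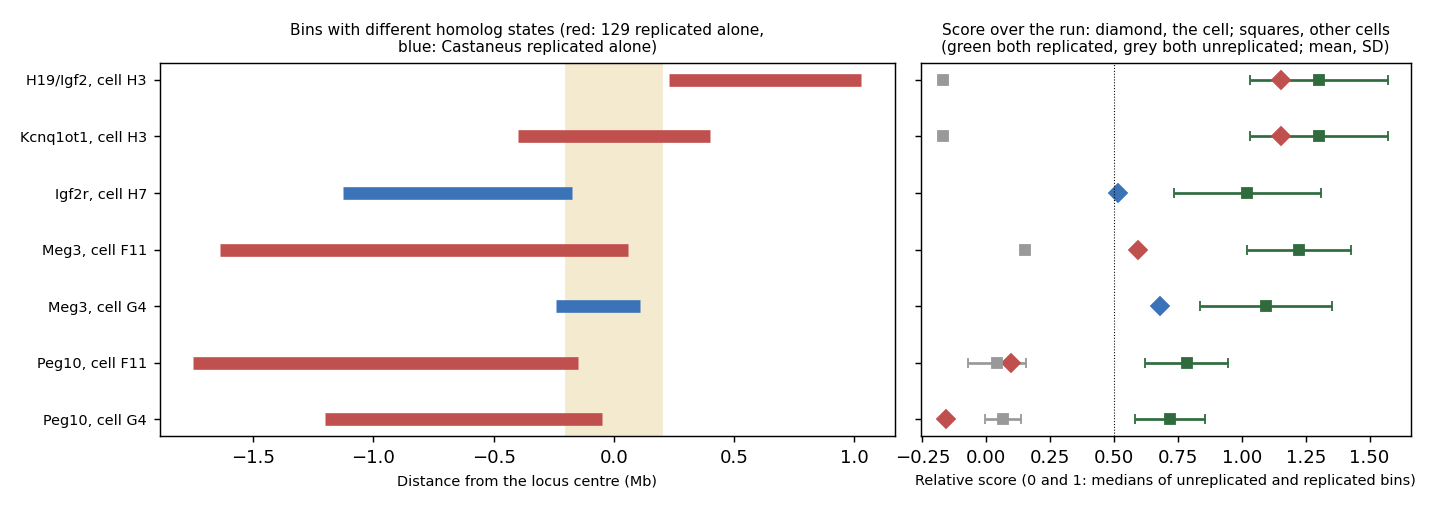
Left, extent of each run of bins with different homolog states relative to the locus centre in Mb (band, 200 kb to each side), with the 129 homolog alone replicated in red and the Castaneus homolog in blue. Right, the relative score of the run in that cell (diamond) beside mid-S-phase cells with both homologs replicated (green) or unreplicated (grey, mean and SD, or a single cell), with a dotted line at 0.5. The run of H3 appears under H19/Igf2 and under Kcnq1ot1, and the runs at Igf2r and Meg3 lie between 0.51 and 0.68.

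Intermediate scores also occurred where the homologs had been given equal states. A window mean between 0.25 and 0.75 was found in 20 of 45 diploid mid-S-phase cells at Grb10 (44.4%, interval 29.6% to 60%) and in 4 of 25 haploid cells (16.0%, interval 4.54% to 36.1%). All 20 had equal states on both homologs throughout the window. At H19/Igf2 there were 15 diploid cells (33.3%), all with equal states, and 4 haploid cells (16.0%). At Peg10 there were 19 (42.2%), 17 of them with equal states, and 9 haploid cells (36.0%). The order was the opposite at Peg3, with 10 diploid (22.2%) and 9 haploid cells (36.0%), and at Igf2r, with 7 (15.6%) and 6 (24.0%). Over all 79 bins the share of values in this range was 24.0% in diploid and 15.2% in haploid cells, beside 22.6% and 18.0% over all autosomal bins. A window that crosses a border of replication has an intermediate mean as well. Among all 75 haploid and 63 diploid cells, bins of both states were present in the Peg10 window of 17 and 19 and in the Grb10 window of 6 and 16. These limits were chosen after the values were seen.

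H19/Igf2 and Kcnq1ot1 form neighbouring imprinted domains on distal chromosome 7, with 100 kb between their windows. They had the same state in 121 of 138 cells (87.7%, interval 81.0% to 92.7%), the 11th highest of the 36 pairs of windows, whose median was 84.1%. The highest was Igf2r with Mest, on different chromosomes, at 94.2%. All pairs share the cells and their progress, so early windows match each other whatever their place. Where the neighbours differed, Kcnq1ot1 was ahead in 6 haploid cells and behind in 1, and in diploid cells it was ahead in 9 and behind in 0.

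A wider list of 58 other imprinted genes was located through RefSeq, and 56 had a used bin, all but Zim1 and Dlk1. Their median scheduled time was 1.92 h, with 45 in the first and 11 in the last 5 h. The same count was not taken over genes in general, so early replication is not shown to be particular to these genes. The earliest 3 were Kcnq1, a potassium channel gene, at 0.11 h, Cdh15, a cadherin gene, at 0.11 h and Blcap at 0.12 h, in the same bin as Nnat. The latest 3 were Ndn at 9.00 h, Magel2 at 8.89 h and Mkrn3 at 8.86 h, all in the Prader-Willi region with Snrpn and with Ube3a, a ubiquitin ligase gene, at 8.60 h. The genes around Snrpn were late as a block, replicated in 0% to 8% of mid-S-phase haploid cells.

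In mid-S-phase cells, 4 of the 56 genes were behind by at least 20 percentage points in haploid cells (7.14%, against 7.11% of all autosomal bins), and all 4 lie around Peg10 on chromosome 6. Calcr, the calcitonin receptor gene, was at 32.0% against 64.4%. Sgce, which shares the control region of Peg10, was at 48.0% against 80.0%, Ppp1r9a at 60% against 93.3% and Asb4 at 48.0% against 90%. Nap1l5, farther along chromosome 6, was the only gene in the opposite direction, at 44.0% against 20%. Neighbouring genes share bins and segments and are not separate observations.

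Homolog states differed in at least 1 diploid cell at 24 of the 56 genes (42.9%), where 40.4% of all autosomal bins had such a cell and a gene can span several bins. At 11 genes in and beside the Kcnq1ot1 window, Th, Ascl2, Tspan32, Cd81, Tssc4, Kcnq1, Cdkn1c, Slc22a18, Phlda2, Nap1l4 and Osbpl5, it was 1 cell each with the 129 homolog ahead. That cell was H3 at all of them but Osbpl5, where it was H6. Calcr had 2 cells with the 129 homolog ahead, and Plagl1, a zinc finger gene, and Rtl1, a retrotransposon-derived gene opposite Meg3, had 2 cells each, 1 in each direction. Dio3, Sgce, Asb4, Kcnk9 and Nap1l5 had 1 cell with the 129 homolog ahead. Rian, Slc22a3, Sfmbt2, Dcn and Atp10a had 1 with the Castaneus homolog ahead. In the windows of the 10 genes, Ins2, Igf2as, Snurf, Usp29, Airn, Slc22a2, Mirg, Ppp1r9a, Copg2, Ddc and Cobl had none. Airn, the non-coding RNA that silences Igf2r in cis, was replicated on both homologs in all 45 mid-S-phase diploid cells. In the 25 mid-S-phase haploid cells its bins were replicated in 96% to 100%.

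The protein-coding genes on other chromosomes whose states were most like each window are given as a description. Over 138 cells, the share in the same state was 98.6% for Tppp with Igf2r and for Add1 with Mest, 96.4% for Brwd1 with Meg3 and 95.7% for Cdc16 with Kcnq1ot1. It was 94.9% for Mfsd2a with Grb10, 92.8% for Adgrl3 with Snrpn, 90.6% for Map3k1 with H19/Igf2, 89.9% for Cd209c with Peg3 and 86.2% for Paqr8 with Peg10. The median over all genes was 89.9% for Kcnq1ot1 and 91.3% for Igf2r, and 14.5% for Snrpn. Up to 27 genes tied, and ties were broken by the correlation of smoothed scores, which did not exceed 0.43.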

How the data were processed

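Reads were mapped to mm10 with Bowtie2 and handled with SAMtools and bedtools, per the submitters' processing notes, with versions not given in the sources used here. The deposited smoothed values are a score without a unit: the authors counted reads in 50 kb windows, scaled them to the reads of the cell, divided by G1 and G2 control cells, centered, scaled and median smoothed them, so scores are relative within a cell. The deposited binarized states (0 or 1) came from segments of that score split at a threshold per cell, and homologs received different states only where enough parsed reads fell outside the G1 and G2 range, with unequal limits for the 129 and Castaneus sides. Of 188 labelled cells, 138 had matched values. A further 24 columns matched no labelled cell and were not used.

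The members and gene lists were chosen with earlier results of these data known. A window took bins with any base within 200 kb of the locus position, and the RefSeq body of Snrpn extends beyond its window. Named from the list of other imprinted genes were the 3 earliest and 3 latest, those in a window and those with a cell of different homolog states, and others by their line difference after their values were seen. Scores, windows and intervals were computed with Python 3.11.15, numpy 2.4.6, pandas 2.3.3 and scipy 1.17.1. The steps for scheduled times, dividing points and runs of different homolog states were tested on simulated data, and the others were not. Alternatives used windows within 100 kb, within 500 kb or at the locus alone, a smoothed score above 0, a narrower mid S phase, classes of progress, other autosomes and other profiles.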

Additional observations from a re-analysis of the deposited data

How the results depend on the processing

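The count of cells with different homolog states and the line difference at Peg10 depended on the settings tried. The former was 7, and it became 4 within 100 kb, 11 within 500 kb, 3 at the locus alone and 3 when at least 50% of the bins of a window had to differ. The excess of cells with the 129 homolog ahead over cells with the Castaneus homolog ahead was 3, and it became 1 at the locus alone, 1 with at least 50% of the bins, 1 without diploid cell F11 and 1 without a cell of each of the 3 similar pairs. Leaving out F11, H6 or a cell of each pair was chosen after seeing the data. The 1 window with a line difference of at least 20 percentage points became 0 with a smoothed score above 0, and the cause was not tested. For single windows, 10 of 81 line differences, 1 of 63 scheduled times and 6 of 90 dividing points were marked as moved. These marks do not rank the changes by size. The line difference at H19/Igf2 went from 14.2 to 7.05 percentage points in classes of progress and was not marked. That at Snrpn went from 5.78 to 8 without H6 and was marked. Also unmarked, the line difference at Mest turned from 2.22 to -1.78 percentage points at the locus alone. With a smoothed score above 0, dividing points at Meg3 turned from 24.6% in haploid and 35.7% in diploid cells to 28.0% and 19.3%, and the median haploid minus diploid dividing point of the windows from -2.96 to 8.64. Kcnq1ot1 lost the earliest place from binarized states, at 2.00 h against 0.17 h. Few cells below 40% progress limit the dividing points, and unknown parsed read numbers limit how many homolog differences could be called. The lines could not be compared in pairs because their cells share names of wells alone. Homologs were compared within each diploid cell, and no result comes from a test.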
